A study of Homo sapiens with 24 samples.

Results

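Keratins are the intermediate filament proteins of epithelial cells. Here the transcripts of 8 keratin genes were followed through therapy-induced senescence (TIS) of SKBr3 cells, a HER2-amplified human breast adenocarcinoma line. The genes were chosen by symbol, as the rows of the deposited count table named KRT7, KRT8, KRT80 and KRT81 (type II keratins) and KRT18, KRT19, KRT10 and KRT15 (type I keratins). All 8 of these symbols had a row among the 14493 genes of the table, and all 8 passed the filter on low counts in every comparison. The 24 libraries fall into 8 groups of 3 replicates. Untreated cells were collected at day 0 (labelled as a proliferative control) and at day 7 (labelled as control cells). The other 6 groups were collected at day 7, with a refeed at day 3, after ND-646 at 250 nmol/L (an inhibitor of acetyl-CoA carboxylase, ACC), TVB-3166 at 250 nmol/L (an inhibitor of fatty acid synthase, FASN), bleomycin at 10 umol/L, doxorubicin at 10 nmol/L, palbociclib at 1 umol/L (a CDK4/6 inhibitor, written Palboclib in the labels) or alisertib at 500 nmol/L (an Aurora A kinase inhibitor). All groups are 1 cell line, and the labels do not say whether replicates are separate cultures, so the p-values measure the spread between these libraries, which may be technical.

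A keratin filament is built from heterodimers, each of 1 type I (acidic) and 1 type II (neutral to basic) chain, and a chain without a partner is usually degraded. Simple epithelia, including the luminal cells of the breast, are known for KRT8 paired with KRT18, with KRT7 and KRT19 as further chains. KRT15 is known from basal cells of stratified epithelia, KRT10 from the suprabasal epidermis, KRT80 from a range of epithelia, and KRT81 is a hair keratin that also occurs in breast cancer lines. Transcript levels, which are what was measured here, need not follow the amount of protein.

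Total counts per library ranged from 29405121 to 44316330. The lowest count of any of the 8 keratins in any library was 155, for KRT15 with alisertib. Such a count carries a counting error of 8.03%, while the SD of KRT15 was 7.62% to 24.5% of the mean in the 8 groups, so that counting error is a sizeable part of the spread for this scarce gene. ND-646 replicate 1 stood above the other ND-646 libraries in 6 of 8 keratins, and TVB-3166 replicate 1 was the highest of its group in 7 of 8. Levels are given after TMM scaling, and a lower scaling factor raises them. This factor was 0.791 in ND-646 replicate 1, against 0.951 and 0.938 in replicates 2 and 3. Before scaling, the 8 keratins took 1.30%, 0.861% and 0.950% of all counts in ND-646 replicates 1, 2 and 3. Differences of ND-646 cells that ND-646 replicate 1 moved by more than 1.5 times, or moved across the threshold, are given without it as well. The 7 measured markers of luminal breast epithelium summed to between 7780 and 8943 CPM (counts scaled to the library total) at day 0. In the groups collected at day 7 the sum lay between 6528 (bleomycin) and 11667 CPM (ND-646). ERBB2, which encodes HER2 and is amplified in this line, made up most of the day-0 sum, at 7049 ± 460.0 CPM (SD, n = 3). The sum therefore does not show the level of the other markers. CDH1, CD24 and the mesenchymal filament gene VIM were not analysed here.

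The keratin transcripts were unequal in abundance. Scaled for transcript length, as CPM per kilobase averaged over the 24 libraries, the order was KRT8 (1891), KRT7 (1614), KRT19 (1359), KRT18 (1276), KRT81 (699), KRT80 (47.8), KRT10 (12.7) and KRT15 (5.42). The 4 simple epithelial keratins and the hair keratin KRT81 thus carried nearly all of the signal, and KRT10 and KRT15 stayed below them in every group. Together the 8 genes took 1.44% ± 0.146 (SD, n = 3) of all counts at day 0. This share was 1.19% ± 0.0800 in untreated day-7 cells, and among the TIS groups it ran from 0.857% ± 0.0834 with bleomycin to 1.25% ± 0.111 with TVB-3166. Because whole cultures were measured, fewer cells with a transcript and less of it per cell cannot be told apart.

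**Figure D1:**
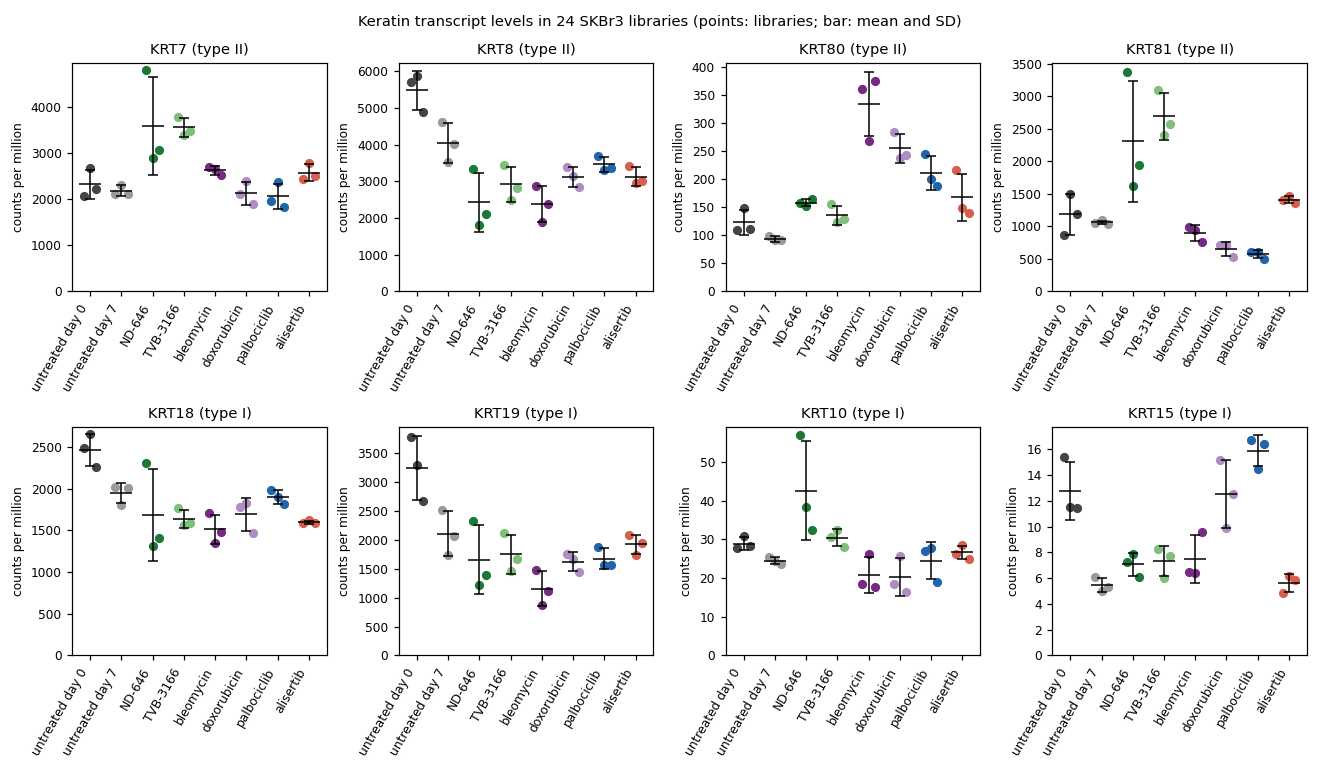
Levels of the 8 keratin transcripts in CPM (y axes from 0) in each of 24 libraries, by group; each point is a library and the bar gives the mean and SD of 3. KRT8 is at 4889 CPM or more in each day-0 library and at 3699 or less in each TIS library, KRT81 is highest with ND-646 and TVB-3166, and KRT80 is highest with bleomycin.

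The first question was how each TIS group differed from proliferating day-0 cells. Of the 8 keratins, 1 was higher in ND-646 cells at an adjusted p under 0.05 (19.1% of the 13604 genes tested were) and 3 were lower (18.8% of genes). In TVB-3166 cells 2 were higher (27.4% of genes) and 4 lower (27.7%). Bleomycin cells had 1 higher (24.1%) and 5 lower (25.3%), and doxorubicin cells 1 higher (23.7%) and 5 lower (24.8%). In palbociclib cells 1 was higher (26.0%) and 4 were lower (27.2%), and in alisertib cells 0 were higher (17.7%) and 4 lower (19.6%). A change was therefore common for any gene in these comparisons, and the counts say little about keratins as a set. The direction differed by member, as the following values show. Most changes were modest. A fold-change of 2 or more with a raw p under 0.05 was the rule used in the study, there with DESeq2. Applied here to edgeR fits, it was met by 1 keratin with ND-646 (20.7% of genes), 1 with TVB-3166 (17.6%) and 3 with bleomycin (18.8%). It was met by 1 with alisertib (7.90%), 1 with doxorubicin (12.9%) and 1 with palbociclib (16.7%). The 6 comparisons share the same 3 day-0 libraries.

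KRT8, the main type II partner of simple epithelia (NCBI gene 3856, chromosome 12, 53290971 to 53343738, minus strand, GRCh37), fell in all 6 TIS groups. It read 5703, 5867 and 4889 CPM in the day-0 replicates and 4612, 3532 and 4017 in the day-7 untreated ones. The ND-646 libraries held 3343, 1815 and 2121 CPM, the TVB-3166 libraries 3441, 2498 and 2812, and the bleomycin libraries 2875, 1893 and 2383. Every TIS library was below every day-0 library. The log2 fold-change against day 0 was -1.19 ± 0.26 (SE) with ND-646 (adjusted p = 0.00801), -0.91 ± 0.15 with TVB-3166 (adjusted p = 0.000376) and -1.20 ± 0.18 with bleomycin (adjusted p = 0.000573). With alisertib, doxorubicin and palbociclib it was -0.81, -0.80 and -0.66, with adjusted p-values of 0.000744, 0.00110 and 0.00120. Untreated day-7 cells were also lower than day-0 cells, by 0.43 on the log2 scale, which did not pass the test (adjusted p = 0.104).

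KRT18, the type I partner of KRT8 (gene 3875, chromosome 12, 53342655 to 53346690, plus strand), lies head to head with KRT8, whose longest gene model reaches over 33.5% of the KRT18 exon bases on the opposite strand. Its mean fell from 2465 ± 195 CPM at day 0 to 1512 ± 176 with bleomycin, 1596 ± 20.8 with alisertib, 1641 ± 107 with TVB-3166, 1690 ± 199 with doxorubicin and 1900 ± 81.1 with palbociclib. The log2 fold-changes ran from -0.70 ± 0.14 (bleomycin, adjusted p = 0.00274) to -0.37 ± 0.11 (palbociclib, adjusted p = 0.0178). In the ND-646 libraries KRT18 read 2312, 1314 and 1408 CPM, and the difference of -0.56 ± 0.25 did not pass (adjusted p = 0.102). The highest of these is replicate 1, and without it the difference was -0.86 (adjusted p = 0.000583). The palbociclib call was lost when palbociclib replicate 2 or 3 or day-0 replicate 2 was left out (adjusted p up to 0.0894).

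KRT19, a type I keratin without the usual tail domain that is widely used as an epithelial tumour marker (gene 3880, chromosome 17, 39679869 to 39684560, minus strand), had the largest decrease of the abundant keratins. Day-0 cells held 3773, 3291 and 2665 CPM and bleomycin cells 1476, 870 and 1116, a 2.80-fold lower level (log2 fold-change of -1.49 ± 0.21, adjusted p = 0.000428). It fell with the other 5 drugs as well, by 0.99 on the log2 scale with doxorubicin, 0.98 with ND-646, 0.96 with palbociclib, 0.88 with TVB-3166 and 0.76 with alisertib. The call with ND-646 (adjusted p = 0.0222) was lost without ND-646 replicate 2 or 3 or day-0 replicate 1 or 2 (adjusted p up to 0.0817). KRT8, KRT18 and KRT19 thus moved in 1 direction in each treatment, and bleomycin cells had the lowest mean of all 8 groups for each of the 3.

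KRT7, a type II keratin of simple and glandular epithelia (gene 3855, chromosome 12, 52626304 to 52645970, plus strand), did not follow KRT8. It read 2065, 2673 and 2209 CPM at day 0, 3783, 3390 and 3471 with TVB-3166, and 4792, 2881 and 3053 with ND-646. All 6 libraries of the lipogenic inhibitors were above all day-0 and day-7 untreated libraries. The rise of 0.62 ± 0.13 (log2) with TVB-3166 passed the test (1.54-fold, adjusted p = 0.00215), while the difference with ND-646, 0.62 ± 0.25, did not (adjusted p = 0.0797) and was 0.36 without ND-646 replicate 1 (adjusted p = 0.0670). Against day-7 untreated cells both passed, at 0.71 ± 0.22 (adjusted p = 0.0371) for ND-646 and 0.71 ± 0.09 (adjusted p = 7.07e-05) for TVB-3166. For ND-646 that call was lost in 3 of 6 fits that left out a library (adjusted p up to 0.138), and without ND-646 replicate 1 the difference was 0.44 (adjusted p = 0.00231). KRT7 was also higher with bleomycin than in day-7 cells (0.28 ± 0.10, adjusted p = 0.0424), a call that was kept in 0 of 6 fits that left out a library (adjusted p up to 0.167). With the other 4 drugs the difference from day 0 lay between -0.17 and 0.18, and the groups overlapped. In a single fit over the 24 libraries, KRT7 was higher with either lipogenic inhibitor than in each of the other 6 groups. An antisense gene that covers 13.6% of the KRT7 exon bases, KRT7-AS, rose in all 6 TIS groups, by at least 1.36 (log2), from 0.826 ± 0.135 CPM, so its pattern across drugs was another one.

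KRT81 (gene 3887, chromosome 12, 52679697 to 52685318, minus strand) had the widest range of the 5 abundant keratins, with group means that spanned 4.69-fold. The day-0 libraries held 863, 1495 and 1194 CPM and the day-7 untreated ones 1057, 1091 and 1033. ND-646 cells read 3370, 1615 and 1947 CPM and TVB-3166 cells 3099, 2409 and 2568. Every library of both lipogenic inhibitors was thus above every untreated library. Doxorubicin cells held 719, 712 and 536 CPM and palbociclib cells 609, 611 and 502, below every untreated library. The rise was 2.28-fold with TVB-3166 (log2 1.19 ± 0.19, adjusted p = 0.000291) and 1.94-fold with ND-646 (0.96 ± 0.31, adjusted p = 0.0397). The fall was 1.79-fold with doxorubicin (adjusted p = 0.00584) and 2.06-fold with palbociclib (adjusted p = 0.000735). Bleomycin, at 899 ± 123 CPM, and alisertib, at 1410 ± 58.0 CPM, did not pass against day 0 (adjusted p = 0.131 and 0.274). Against day-7 untreated cells alisertib cells were higher, by 0.43 ± 0.07 (adjusted p = 0.00395), and this call was kept in 6 of 6 fits that left out a library. Without ND-646 replicate 1 the ND-646 difference was 0.59 (adjusted p = 0.0367). The ND-646 call was not stable, since it was lost without ND-646 replicate 3 or any 1 of the day-0 libraries (adjusted p up to 0.130). Against day-7 untreated cells it was 1.12 ± 0.26 (adjusted p = 0.0126), and there leaving out 1 library kept the call in 4 of 6 fits. Without ND-646 replicate 1 this difference was 0.74 (adjusted p = 0.000123). In the single fit over the 24 libraries, ND-646 and TVB-3166 each exceeded the other 6 groups.

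The KRT81 counts cannot be wholly separated from those of its neighbours. The gene sits between KRT7 and KRT83 in a cluster of near-identical hair keratins, and a KRT86 gene model on the opposite strand spans all KRT81 exons. Whether reads were counted by strand is not given in the sources used here. The KRT81 coding sequence was identical to that of KRT86 at 90.1% of aligned bases and to that of KRT83 at 89.3%. Of the 1780 runs of 150 bases (the read length) in the KRT81 transcript, 456 (25.6%) also occur in KRT86 transcripts, and none of the other 7 keratins shares such a run with another gene. Both kinds of stretch are shown from the GRCh37 transcript annotation, 60 coding bases each, to let the likeness be seen. The first joins exons 2 and 3 of KRT81 (coding bases 574 to 633, within chr12:52683005-52683866, minus strand). Capitals in the KRT81 line mark bases at which KRT86 or KRT83 differs from it, and in the other lines bases that differ from KRT81.
KRT81: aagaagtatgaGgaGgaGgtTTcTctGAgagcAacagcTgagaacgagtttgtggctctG
KRT86: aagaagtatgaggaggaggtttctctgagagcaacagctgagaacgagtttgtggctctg
KRT83: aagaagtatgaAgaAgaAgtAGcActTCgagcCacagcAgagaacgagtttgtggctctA
In this stretch KRT86 has 0 differences from KRT81 and KRT83 has 11, so these 60 bases alone do not tell KRT81 from KRT86. A read of 150 bases reaches beyond the stretch, and whether it then meets a difference is not shown here. The second joins exons 8 and 9 of KRT81 (coding bases 1249 to 1308, within chr12:52680249-52680605, minus strand) and was shown because it holds the most differences between KRT81 and KRT86 of any such window, 14.
KRT81: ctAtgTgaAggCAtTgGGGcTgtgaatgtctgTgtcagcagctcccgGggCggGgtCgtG
KRT86: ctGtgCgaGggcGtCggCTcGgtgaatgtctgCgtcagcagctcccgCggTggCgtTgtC
KRT83: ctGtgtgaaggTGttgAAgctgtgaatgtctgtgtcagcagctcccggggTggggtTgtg

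The 3 rows most like KRT81 across the 24 libraries, out of 14077 genes compared on log2 CPM, were its cluster neighbours KRT87P (a pseudogene, Pearson r = 0.995), KRT86 (0.991) and KRT83 (0.975). These libraries share groups and, for KRT86, sequence, so the values are a description. KRT86, a hair keratin, stood at 41.6 ± 10.1 CPM at day 0, 94.6 ± 40.5 with ND-646 and 125 ± 12.7 with TVB-3166, and at 17.8 ± 2.58 with palbociclib. Its level was 0.0309 to 0.0466 times that of KRT81 in the group means, so most reads assigned to either gene were assigned to KRT81. How far the KRT86 row holds reads from KRT81 transcripts, or the reverse, was not tested. KRT86 rose with both lipogenic inhibitors (log2 1.17 ± 0.30, adjusted p = 0.0142, and 1.59 ± 0.16, adjusted p = 1.32e-05), and it fell with doxorubicin and palbociclib. KRT83, which shares no 150-base run with KRT81, rose and fell in the same 4 groups, by 0.99, 1.13, -0.84 and -0.98.

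**Figure D2:**
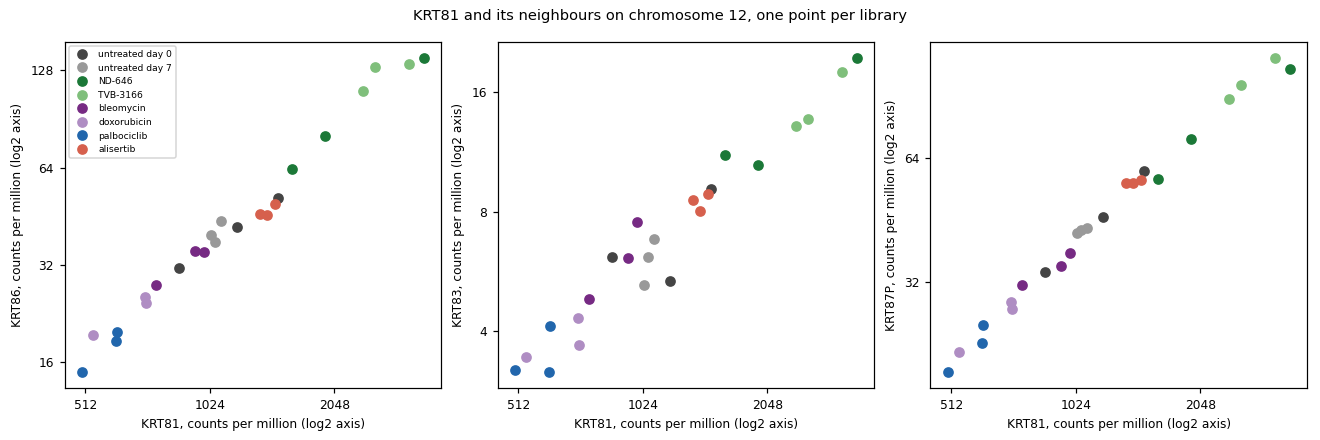
KRT86, KRT83 and KRT87P against KRT81, in CPM on log2 axes, with 1 point per library coloured by group. The palbociclib and doxorubicin libraries sit at the low end and the TVB-3166 libraries and ND-646 replicate 1 at the high end of all 3 panels.

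KRT80, a type II keratin expressed at a low level here (gene 144501, chromosome 12, 52562780 to 52585798, minus strand), rose with the DNA-damaging drugs and the CDK4/6 inhibitor. The day-0 libraries held 110, 149 and 111 CPM and the day-7 untreated ones 99.1, 90.9 and 91.0. Bleomycin cells read 361, 269 and 375 CPM, doxorubicin cells 285, 238 and 244, and palbociclib cells 246, 201 and 189. Each of these 9 libraries was above all 6 untreated ones. The rise was 2.73-fold with bleomycin (log2 1.45 ± 0.16, adjusted p = 0.000154), 2.09-fold with doxorubicin (1.06 ± 0.13, adjusted p = 0.000199) and 1.72-fold with palbociclib (0.78 ± 0.14, adjusted p = 0.000882). With alisertib, ND-646 and TVB-3166 the differences from day 0 were 0.45, 0.36 and 0.15 and did not pass (adjusted p = 0.0596, 0.103 and 0.377). The alisertib difference was 0.23 without alisertib replicate 1, and it passed in the fit over all 24 libraries (adjusted p = 0.0347). Against day-7 untreated cells, in which KRT80 was lowest, it rose in all 6 TIS groups, from 0.54 ± 0.09 with TVB-3166 to 1.85 ± 0.13 with bleomycin, and each of these 6 calls was kept in 6 of 6 fits that left out a library. In the fit over all groups, bleomycin and doxorubicin cells exceeded ND-646, TVB-3166 and alisertib cells. A non-coding gene on the opposite strand spans all KRT80 exons in the annotation and was not analysed here.

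KRT15, a basal type I keratin (gene 3866, chromosome 17, 39669997 to 39678781, minus strand), was the scarcest of the 8, and it was the only one that differed between the untreated groups (0.587% of all genes did). It read 15.4, 11.5 and 11.4 CPM at day 0 and 6.10, 5.04 and 5.32 at day 7, 2.31-fold lower (log2 -1.21 ± 0.16, adjusted p = 0.0315). That call was lost without any 1 of the day-7 libraries or without day-0 replicate 2 (adjusted p up to 0.137) and without a filter on low counts. DESeq2 called 5 keratins lower in the same comparison (4.58% of genes were). The sign of the KRT15 difference changed with the reference in 5 of the 6 TIS groups, and with palbociclib it was positive against both. It was lower than at day 0 with ND-646 (-0.86 ± 0.20, adjusted p = 0.0101), TVB-3166 (-0.80 ± 0.18, adjusted p = 0.00257), bleomycin (-0.77 ± 0.21, adjusted p = 0.0128) and alisertib (-1.19 ± 0.17, adjusted p = 0.000695). Against day 7 the same 4 differences were 0.36, 0.42, 0.46 and 0.05, of which the one with TVB-3166 passed (adjusted p = 0.0489). The libraries of these groups overlapped, and the call was kept in 2 of 6 fits that left out a library (adjusted p up to 0.152). Palbociclib cells, at 16.8, 14.5 and 16.4 CPM, and doxorubicin cells, at 15.2, 9.89 and 12.6 CPM, lay in the range of day 0 or near it. They exceeded day-7 cells by 1.54 ± 0.13 (adjusted p = 8.58e-06) and 1.22 ± 0.17 (adjusted p = 0.000156).

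KRT10, a keratin of differentiating epidermis (gene 3858, chromosome 17, 38974369 to 38978866, minus strand), stayed at a low level. It read 27.7, 30.8 and 28.2 CPM at day 0. The bleomycin libraries held 18.3, 26.1 and 17.7 CPM and the doxorubicin libraries 18.6, 25.8 and 16.5, in each case all below day 0, and both differences passed (log2 -0.47 ± 0.17, adjusted p = 0.0385, and -0.50 ± 0.16, adjusted p = 0.0228). The bleomycin call was lost in 5 of 6 fits that left out a library (adjusted p up to 0.125) and the doxorubicin call in 3 of 6 (up to 0.0912). ND-646 cells read 56.9, 38.3 and 32.3 CPM, with replicate 1 far above the rest. The difference of 0.55 ± 0.21 from day 0 did not pass (adjusted p = 0.0674), and that of 0.79 ± 0.21 from day 7 did (adjusted p = 0.0191, lost in 3 of 6 fits that left out a library). Without replicate 1 they were 0.29 (adjusted p = 0.0722) and 0.52 (adjusted p = 0.00245).

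**Figure D3:**
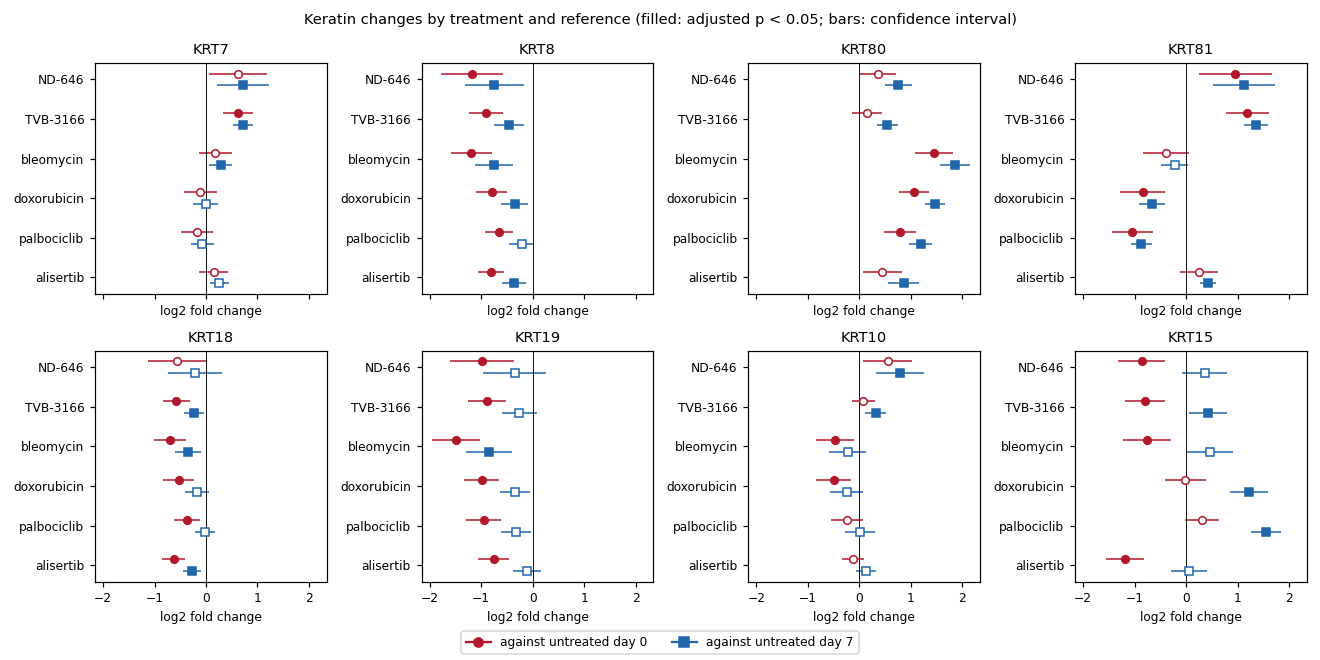
Log2 fold-changes of the 8 keratins (x axes) in the 6 TIS groups against untreated day-0 cells (circles) and untreated day-7 cells (squares); bars are 95% confidence intervals and filled symbols have an adjusted p under 0.05. KRT8, KRT18 and KRT19 lie left of 0 against day 0 in all 6 groups, KRT80 lies right of 0, and KRT15 changes side with the reference in 5 groups.

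Untreated day-7 cells were then used as the reference for all keratins, since they share the collection day with the TIS cells. The labels name a refeed at day 3 for the TIS groups only, so drug and refeed cannot be told apart in these comparisons. Again all 6 comparisons share 3 control libraries. KRT8 was lower in 5 groups, by 0.35 to 0.75 on the log2 scale, and was -0.21 with palbociclib (adjusted p = 0.134). Its bleomycin call was kept in 6 of 6 fits that left out a library, its TVB-3166 call in 4, its alisertib call in 2 and its ND-646 and doxorubicin calls in 1 each. KRT19 remained lower with bleomycin (-0.85 ± 0.20, adjusted p = 0.00724), and the other 5 differences, -0.35 to -0.12, did not pass. With a block for the replicate number, KRT19 also passed with TVB-3166, doxorubicin and palbociclib (-0.26, -0.34 and -0.31, adjusted p = 0.0154, 0.0263 and 0.0060). KRT19 did not pass with that block with ND-646 or alisertib (adjusted p = 0.121 and 0.248). The KRT18 calls with TVB-3166, bleomycin and alisertib (-0.24, -0.35 and -0.27) were each lost in at least 4 of 6 fits that left out a library. Without ND-646 replicate 1, KRT18 and KRT19 were lower with ND-646 as well, by 0.52 and 0.69 on the log2 scale (adjusted p = 0.00108 and 0.00230). Thus the decreases of the KRT8, KRT18 and KRT19 transcripts were smaller against day 7 than against day 0, while the rises of KRT7, KRT80 and KRT81 were at least as large. In total 4 keratins were higher (17.2% of genes were) and 1 lower (17.1%) with ND-646, 5 higher (25.4%) and 2 lower (26.1%) with TVB-3166, and 2 higher (22.4%) and 3 lower (23.2%) with bleomycin. The counts were 2 higher (21.9%) and 2 lower (21.5%) with doxorubicin, 2 higher (22.0%) and 1 lower (22.9%) with palbociclib and 2 higher (9.55%) and 2 lower (9.49%) with alisertib. The same-numbered libraries deviated together in 3 of 3 pairs for alisertib and bleomycin against day 7. With a block for the replicate number, KRT7 passed with alisertib too (0.25 ± 0.06, adjusted p = 0.00645, against 0.0544 without the block), which made 3 higher (15.3% of genes), and the bleomycin calls stayed the same 5.

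Because the members moved in different directions, the make-up of the type II pool shifted within each library, a quantity that does not depend on how libraries are scaled to one another. Per kilobase, KRT8 made up 64.7%, 57.2% and 57.7% of the 4 type II transcripts in the day-0 replicates. In ND-646 cells its share was between 27.7% and 28.9% (mean 28.3% ± 0.557, SD, n = 3), and in TVB-3166 cells between 29.4% and 32.7% (31.0% ± 1.65). The ND-646 replicates, which differed widely in CPM, were close to one another in these shares. KRT7 went from 27.7% ± 1.69 at day 0 to 46.2% ± 1.93 with ND-646 and 41.8% ± 2.18 with TVB-3166, which made it the most abundant type II transcript in both groups. KRT81 went from 11.9% ± 2.44 to 24.6% ± 1.80 and 26.5% ± 0.581. With bleomycin KRT7 was also the most abundant (46.3% ± 3.70), but the share of KRT81 was 13.3% ± 1.70 and that of KRT80 2.47% ± 0.371, against 0.615% ± 0.0472 at day 0. In doxorubicin, palbociclib and untreated day-7 cells KRT8 still held 50.6% to 54.6% of the pool, and in alisertib cells 42.7% ± 2.90.

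**Figure D4:**
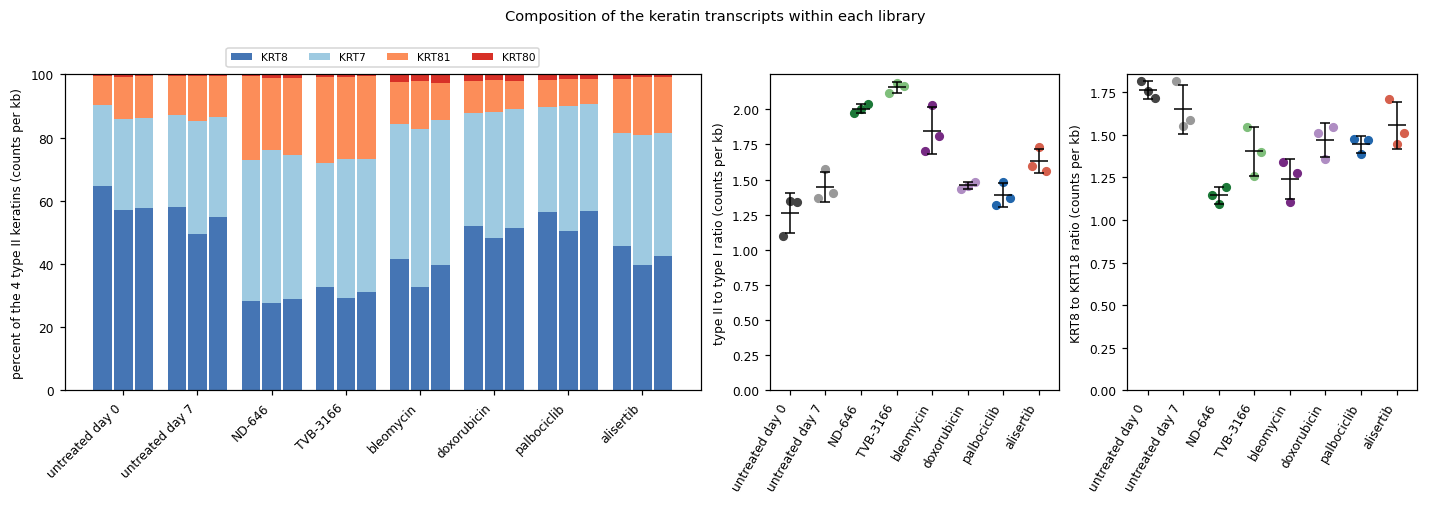
Left, the share of each type II keratin in the sum of the 4 (percent of counts per kb), 1 bar per library; middle and right, the ratio of type II to type I keratins and of KRT8 to KRT18, with points for libraries and bars for the mean and SD of 3. By group mean, the KRT8 share is lowest with ND-646 and TVB-3166, where the type II to type I ratio is highest. Bleomycin replicate 2 lies in the range of these libraries for both (32.6% and 2.03).

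The sum of type II over type I transcripts per kilobase was 1.26 ± 0.142 at day 0. It was 2.01 ± 0.0308 with ND-646, 2.16 ± 0.0374 with TVB-3166, 1.85 ± 0.168 with bleomycin, 1.63 ± 0.0868 with alisertib, 1.46 ± 0.0261 with doxorubicin and 1.39 ± 0.0848 with palbociclib. For 5 of the 6 drugs all libraries were above all day-0 libraries, which gives p = 0.1 in a two-sided exact permutation test, the smallest value that 3 against 3 libraries allow. With palbociclib the groups overlapped (exact permutation p = 0.4). Untreated day-7 cells stood at 1.45 ± 0.108 (exact permutation p = 0.1). The pair KRT8 and KRT18 went the other way. Its ratio was 1.76 ± 0.0528 at day 0, 1.14 ± 0.0491 with ND-646, 1.24 ± 0.119 with bleomycin and 1.40 ± 0.142 with TVB-3166. It was below day 0 in every library of all 6 drugs (exact permutation p = 0.1 for each). With alisertib (1.56 ± 0.138) the margin was narrow, 1.711 in the highest library against 1.713 in the lowest at day 0. In untreated day-7 cells the ratio was 1.65 ± 0.143 and overlapped day 0 (exact permutation p = 0.3). Within the type I genes KRT18 rose in share, from 42.8% ± 3.22 at day 0 to 56.3% ± 3.51 with bleomycin.

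ND-646 and TVB-3166 block consecutive enzymes of fatty acid synthesis and were given at the same dose and for the same time, so their cells were compared directly. None of the 8 keratins differed at an adjusted p under 0.05 (0.717% of all genes did), neither with edgeR nor with DESeq2 (which called 5.36% of genes), and with edgeR 0 of 8 had an unadjusted p under 0.05 (the lowest was 0.0504, for KRT10). The interval of the difference (TVB-3166 minus ND-646, log2, 95%) ran from -0.51 to 0.50 for KRT7, from -0.31 to 0.85 for KRT8 and from -0.41 to 0.87 for KRT81, so differences of that size are not excluded by these libraries. This comparison turned on 1 library. Without ND-646 replicate 1, KRT8 was 0.57 higher with TVB-3166 (adjusted p = 0.0237) and KRT81 0.60 higher (adjusted p = 0.0149). A block for the replicate number, which the same-numbered libraries of these groups allow by their correlations, also gave 0 calls. The KRT8 to KRT18 ratio was higher with TVB-3166 than with ND-646 in every library (exact permutation p = 0.1).

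The order of the 8 groups was set out for each keratin from the single fit over the 24 libraries. Of 224 pairs of groups (28 for each keratin), 101 differed at an adjusted p under 0.05 (33.2% of all pairs of groups over all genes did), most often for KRT81 (20 of 28) and KRT80 (19 of 28) and least often for KRT18 (5 of 28). Of 56 pairs of next neighbours in the order, 3 differed. These were KRT7 in TVB-3166 over bleomycin cells, KRT15 in doxorubicin over bleomycin cells, and KRT81 in ND-646 over alisertib cells. Without ND-646 replicate 1 the number was 10, and without bleomycin replicate 2 it was 1. Neighbours in such an order are the closest groups for any gene. Their share over all genes was not taken, so these counts do not describe keratins as a set.

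Another 8 keratin genes had a row in the table (KRT4, KRT13, KRT16, KRT17, KRT23, KRT40, KRT83 and KRT86), all at lower levels than the simple epithelial keratins. Against day 0, 5 were higher (19.1% of genes were) and 2 lower (18.8%) with ND-646, 6 (27.4%) and 2 (27.7%) with TVB-3166, and 4 (24.1%) and 2 (25.3%) with bleomycin. With alisertib these numbers were 3 (17.7%) and 2 (19.6%), with doxorubicin 4 (23.7%) and 3 (24.8%), and with palbociclib 3 (26.0%) and 4 (27.2%). KRT4, a mucosal type II keratin, fell in all 6, from 205 ± 24.8 CPM at day 0 to as low as 48.5 ± 20.5 with bleomycin. KRT23, an inducible type I keratin, rose in all 6, from 5.56 ± 1.92 CPM to 30.5 ± 6.04 with ND-646 and 28.7 ± 1.88 with TVB-3166. KRT16 and KRT17, type I keratins of injured and basal epithelium, rose with bleomycin (log2 3.02 ± 0.34 and 2.93 ± 0.34) and doxorubicin (3.00 ± 0.30 and 3.32 ± 0.30), but reached only 4.19 ± 1.05 and 5.58 ± 1.15 CPM with bleomycin. KRT5 and KRT14 were not analysed here.

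For the other members, the genes whose log2 CPM was most like each member over the 24 libraries were as follows, given as a description. For KRT7 these were RAB4B (Pearson r = 0.938), ABHD11-AS1 (0.933) and NUCB2 (0.931), and for KRT80 they were CLDN1, a tight junction gene (0.914), RAP2B (0.904) and GPRC5B (0.903). For KRT8 they were SNRPD3 (0.939), ATP5MC1 (0.935) and USP5 (0.931), for KRT18 TIMM8B (0.933), ECHS1 (0.923) and URM1 (0.922), and for KRT19 MPDU1 (0.965), SNRNP25 (0.955) and MRPS11 (0.939). KRT10 was most like JTB (0.901), SLC9A3R2 (0.898) and SMIM22 (0.898), and KRT15 most like BLCAP (0.827), GABBR2 (0.792) and BAMBI (0.778).

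Keratins are tied to desmosomes and hemidesmosomes and are handled by chaperones, and lists of such partners were followed beside them. Of all genes tested against day 0, 19.1% were higher and 18.8% lower with ND-646, and 27.4% and 27.7% with TVB-3166. These shares were 24.1% and 25.3% with bleomycin and 23.7% and 24.8% with doxorubicin. They were 26.0% and 27.2% with palbociclib and 17.7% and 19.6% with alisertib. The counts for each list are to be read beside these shares. Of 16 measured desmosome and cross-linker genes (15 tested with palbociclib), 4 were higher and 2 lower with ND-646, 5 and 4 with TVB-3166, 2 and 1 with bleomycin, 5 and 2 with doxorubicin, 3 and 4 with palbociclib and 1 and 3 with alisertib, with list medians between -0.15 and 0.14 on the log2 scale (medians of all genes -0.01 to 0.02). The desmosomal cadherin DSG2 rose in 5 groups, by 1.03 with ND-646, whereas the plaque protein gene PKP3 fell in all 6, by 0.48 to 0.86. Of 10 keratin partners and chaperones, 2 were higher and 3 lower with ND-646, 2 and 4 with TVB-3166, 1 and 6 with bleomycin, 1 and 5 with doxorubicin, 0 and 4 with palbociclib and 2 and 4 with alisertib. Among them the Hsc70 gene HSPA8 fell in all 6, by 0.41 to 0.91, and so did the keratin-binding TCHP, by 0.36 to 0.92. SFN, whose product 14-3-3 sigma binds KRT17 and KRT18, fell with bleomycin, alisertib, doxorubicin and palbociclib, by 2.56 in the last, and was -0.22 and -0.35 with ND-646 and TVB-3166.

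Of 14 regulators of epithelial genes, 7 were higher and 2 lower with ND-646 (median 0.41), 7 higher and 1 lower with TVB-3166 (median 0.30) and 2 higher and 1 lower with alisertib (median 0.01). The counts were 5 and 3 with bleomycin, 6 and 2 with doxorubicin and 5 and 4 with palbociclib. Across the drugs, 17.7% to 27.4% of all genes tested were higher and 18.8% to 27.7% lower. EHF, an ETS factor of glandular epithelium, rose in all 6 by 1.53 to 2.04. KLF4 rose with ND-646 (1.04) and TVB-3166 (0.99) and fell with palbociclib (-1.54), alisertib (-0.84) and doxorubicin (-0.29). Cornified envelope genes had only 4 of 20 list members with a row. Of these 2 were higher and 1 lower with ND-646, 2 and 2 with TVB-3166, bleomycin and doxorubicin, 1 and 2 with palbociclib and 0 and 2 with alisertib. IVL, an envelope precursor, rose in 5 groups, by 2.68 with palbociclib, and the cross-linking enzyme gene TGM1 fell in all 6, by 1.06 to 1.95.

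Of the other intermediate filament genes (7 tested with ND-646 and TVB-3166 and 8 with the other drugs), LMNB1 and LMNB2, the B-type nuclear lamins, fell in all 6 TIS groups, LMNB1 by 0.68 (alisertib) to 2.52 (ND-646). The counts for this list were 2 higher and 3 lower with ND-646, 1 and 3 with TVB-3166, 1 and 4 with bleomycin, 1 and 4 with doxorubicin, 1 and 5 with palbociclib and none and 2 with alisertib. Mesenchymal genes had 6 of 16 with a row, of which 2 were higher and 1 lower with ND-646, 1 and 1 with TVB-3166, 3 and 2 with bleomycin and doxorubicin, 2 and 3 with palbociclib and 0 and 1 with alisertib. For both lists, the shares of all genes tested were 17.7% to 27.4% higher and 18.8% to 27.7% lower across the drugs. FN1 rose with palbociclib (2.97), doxorubicin (2.14) and bleomycin (1.24), and S100A4 fell with the same 3 drugs and with alisertib. EPCAM, an epithelial surface marker, lay within -0.28 to 0.22 of day 0 and passed the test in none of the 6.

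Of the 7 luminal markers, 4 were higher and 0 lower with ND-646, 5 and 0 with TVB-3166, 1 and 0 with bleomycin, 2 and 0 with doxorubicin, 2 and 1 with palbociclib and 3 and 1 with alisertib. Among all genes tested, 17.7% to 27.4% were higher and 18.8% to 27.7% lower across the drugs. Markers of other cell types were checked in the same libraries. The 3 measured basal or myoepithelial markers (KRT17, TP63 and ACTA2, of 7 in the list) summed to 1.40 to 2.11 CPM at day 0, 7.87 to 18.0 with bleomycin, 15.7 to 21.3 with doxorubicin, 5.54 to 8.08 with ND-646 and 2.84 to 3.88 with TVB-3166. This sum was 3.85 to 6.02 CPM with palbociclib and 2.46 to 4.22 with alisertib. The single immune marker with a row, CD68, read 4.20 to 6.08 CPM at day 0, 42.0 to 54.5 with ND-646, 25.6 to 30.3 with TVB-3166 and 34.3 to 56.4 with bleomycin. CD68 read 9.25 to 10.2 CPM with doxorubicin, 8.48 to 12.9 with palbociclib and 4.78 to 5.78 with alisertib. Endothelial markers (CDH5 and VWF, of 3) summed to 4.91 to 7.26 CPM at day 0 to 38.9 to 47.8 with doxorubicin, 38.9 to 45.8 with palbociclib, 27.3 to 45.2 with bleomycin and 6.34 to 14.1 in the other 3 TIS groups, and the fibroblast marker COL1A1 (1 of 6) was 11.8 to 13.1 CPM at day 0 and at most 11.8 in any TIS library. The part of these levels in the keratin changes was not tested.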

How the data were processed

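The authors extracted total RNA, sequenced stranded libraries (the labels name an mRNA kit and the methods a total RNA kit), and processed the reads with HISAT2, StringTie and DESeq2 on GRCh37, per the labels. They deposited whole-number read counts per gene, not normalized, with a lowest count of 1 in the table. Counting settings are not given in the sources used here. Groups were taken from sample titles. Counts were tested in R 4.3.3 with edgeR 4.0.16 (filterByExpr, TMM, glmQLFit and glmQLFTest, 2-sided, only the groups compared), with Benjamini-Hochberg adjustment over all genes tested and a call at an adjusted p under 0.05. CPM values are TMM-scaled over 24 libraries, with a prior count of 2 for log2 values, and values per kilobase use the canonical GENCODE transcript on GRCh37. Alternatives included DESeq2 1.42.0, other filters and size factors, a replicate block and each library left out. Deviations from the group means correlated between TVB-3166 and ND-646 libraries of the same number (0.213 to 0.380 for 3 of 3 pairs). Against day 7 they did so for alisertib (0.105 to 0.218) and bleomycin (0.107 to 0.142). The block thus applies in these 3 comparisons, from the data alone. The cut is narrow, since the lowest correlation against day 7 was 0.0974 with doxorubicin and 0.0866 with ND-646. Counts were also simulated for ND-646 against day 0 (13604 genes), with 66 genes changed 4-fold, 67 changed 2-fold and 67 changed 1.5-fold. There edgeR recovered 90.9% of changes of 4-fold, 43.3% of 2-fold and 1.49% of 1.5-fold, with 7 false calls. DESeq2 recovered 92.4%, 56.7% and 13.4%, with 34 false calls. Far more genes were called in the real comparison (19.1% higher and 18.8% lower), so these rates do not give its sensitivity. All 8 members are named, and from each of 6 partner lists up to 4 genes with the largest mean absolute log2 fold-change over the drugs among those called. The members and lists were chosen with earlier results of these data known.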

Additional observations from a re-analysis of the deposited data

How the results depend on the processing

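Over single keratins and comparisons, 384 of the values recomputed under other settings and 338 of those with 1 library left out kept their direction and their side of the threshold, 14 and 23 lost the call, 23 and 8 gained it, and 11 and 15 changed sign. The study's rule (2-fold or more, raw p under 0.05) was also applied to the edgeR fits against day 0. It called 3 keratins with bleomycin and 1 each with ND-646, TVB-3166, alisertib, doxorubicin and palbociclib. Most keratin changes were under 2-fold. In the fit over all 24 libraries 7 were called with ND-646, and against day 7 the number was 3 with palbociclib. Between the untreated groups, DESeq2 called 5, the fit without a filter on low counts 0 and the replicate block 3, against 1 in the main comparison. With 1 library left out, the number called was 2 to 5 with ND-646 (2 without day-0 replicate 1 or 2), 0 to 1 between untreated groups and 0 to 2 between TVB-3166 and ND-646. For the DESeq2 fit, 4.58% of genes were called lower. The shares over all genes were not taken for the other fits named in the last 3 sentences on ND-646 and the untreated groups. Whether those fits called more of all genes was not tested, so their counts do not describe keratins as a set. The ND-646 call of KRT81 was also lost without a filter on low counts (adjusted p = 0.0536) and with the replicate block (adjusted p = 0.0665), and the palbociclib call of KRT18 in the fit over all libraries.

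The number of neighbouring groups told apart was 8 with a replicate block and 1 to 10 with 1 library left out. The shares over all genes were not taken for these numbers. Leaving out 1 library here was chosen after seeing the data, as were the day-7 fits with a block or without 1 library. Replaced by KRT8 to KRT18 alone, the log2 type II to type I difference from day 0 turned negative. It was -0.62 with ND-646, -0.33 with TVB-3166, -0.51 with bleomycin, -0.18 with alisertib, -0.26 with doxorubicin and -0.29 with palbociclib. In untreated day-7 cells it was -0.10. This replacement leaves out KRT7, KRT80, KRT81, KRT19, KRT10 and KRT15. With day 7 as the reference the palbociclib difference of the type II to type I ratio was -0.0608. The same reference turned KRT15 to 0.36 with ND-646, 0.42 with TVB-3166, 0.46 with bleomycin, 0.05 with alisertib and 1.22 with doxorubicin, and KRT10 to 0.13 with alisertib and 0.010 with palbociclib. Signs near 0 also turned for KRT15 with doxorubicin (0.0069 with at least 10 counts in every library, -0.19 to 0.13 with 1 library left out), for KRT7 with doxorubicin (-0.21 to 0.0036) and in untreated day-7 cells (-0.16 to 0.036), and for KRT81 in untreated day-7 cells (-0.33 to 0.053). Between TVB-3166 and ND-646 they turned for KRT7 (0.00089 with at least 10 counts, 0.031 with the replicate block, -0.14 to 0.26 with 1 library left out), KRT18 (0.019 with the block, -0.18 to 0.28), KRT19 (-0.089 to 0.42) and KRT15 (-0.043 to 0.19). The cause of these changes was not tested.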

Other observations

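Beside the keratins described above, KRT40, a type I hair keratin, rose in all 6 TIS groups, from 0.796 ± 0.290 CPM (SD, n = 3) at day 0 to 10.9 ± 2.69 with ND-646 and 8.03 ± 2.09 with palbociclib (log2 fold-change of 3.76 ± 0.33, adjusted p = 7.35e-05, and 3.33 ± 0.30, adjusted p = 1.18e-05). It was 1.74 ± 0.831 CPM in untreated day-7 cells (adjusted p = 0.130). KRT13, a mucosal type I keratin, fell in 5 groups, to 0.324 ± 0.163 CPM with ND-646 from 1.72 ± 0.215 at day 0, and differed by 0.10 with doxorubicin (adjusted p = 0.727). KRT8P3, a pseudogene row named after KRT8, fell in all 6 groups, by 0.98 to 1.38 on the log2 scale.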
